A study of Mus musculus with 10 samples.

Results

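The proneural factors described here are the 7 basic helix-loop-helix (bHLH) genes Neurog1, Neurog2, Neurod1, Neurod4, Nhlh1, Nhlh2 and Atoh1. They were taken by gene symbol as a family, with earlier results of these data known, and all 7 were found among the 17919 genes of each expression table. The cells were neural stem cells of the ventral midbrain, taken from ICR mice at embryonic day 10 and grown in culture. They received a lentivirus that expresses Lin28a, an RNA-binding protein of early embryos, or a mock virus as control, and were passaged every 4 days. There are 6 groups in use for these genes: RNA-seq of the Lin28a culture and of the control culture at passage 3 (P3), RNA-seq of the Lin28a culture and of the control culture at passage 1 (P1), and polysome RNA of the Lin28a culture and of the control culture at P3. Small RNA of the same 4 combinations of virus and passage is used for 3 microRNAs. With 1 library per group no difference was checked against replicates or tested, and values carry no SD. The labels give neither the promoter in the virus nor how many embryos were pooled.

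Proneural bHLH proteins switch on neuronal differentiation in dividing progenitors. They bind DNA at E-boxes as dimers with the widely expressed E proteins, while Id proteins tie up the E proteins and Hes and Hey proteins, the effectors of Notch, repress proneural genes. Neurog2 and Neurog1 commit progenitors to a neuronal fate, and in the mouse midbrain Neurog2 is needed for normal formation of dopamine neurons. Neurod1, Neurod4, Nhlh1 and Nhlh2 act later, in cells that are leaving the cell cycle and in young neurons, and Atoh1 marks the rhombic lip of the hindbrain.

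Levels are given in FPKM (fragments per kilobase of transcript, scaled to library size) for RNA-seq and in RPKM (the same for reads) for polysomes. Both are scaled to gene length, so members can be compared within a library. Ratios are log2 ratios of the value plus 1, which understates the change of low genes, and a gene entered a comparison when it reached 1 in at least 1 of the libraries compared. A difference past 2-fold on that scale is counted as higher or lower. Lin28a RNA followed the labels, with 104 FPKM in P3 Lin28a and 0.0620 in P3 control, against 478 at P1 with Lin28a and 0.128 at P1 in control. Polysomes held it at 17.9 RPKM in Lin28a and at the floor of the file in control. The total depth of the RNA-seq libraries is unknown. Low values gave only relative depths, of 1.04 for P3 Lin28a, 1.01 for P3 control and 1.16 for P1 Lin28a when P1 control is set to 1. In polysomes the steps between low values gave a depth at which 1 RPKM stands for 22.1 reads per kilobase in Lin28a and 21.2 in control. All 9 neural stem cell markers on the list, among them Sox2, Nes and Vim, were at 1 or more in each of the 6 libraries. All 8 ventral midbrain markers were at 1 or more in P3 Lin28a, P1 Lin28a and P1 control, and 6 of 8 were in P3 control. In polysomes 8 of 8 were with Lin28a and 7 of 8 in control.

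Neurog2 (NM_009718, chromosome 3), the main neuronal commitment factor of the ventral midbrain, was the highest of the 7 genes in every library. It was at 9.03 FPKM in P3 Lin28a and 0.750 in P3 control, against 64.1 at P1 with Lin28a and 57.5 at P1 in control. Polysomes held 10.96 RPKM in Lin28a and 0.860 in control. The P1 cultures were thus high, P3 Lin28a was intermediate and P3 control was low. The P3 level was 14.1% of the P1 level in the Lin28a culture and 1.30% in the control culture, and the passage ratios were -2.70 and -5.06. In the control culture Neurog2 had the third lowest passage ratio of 13011 genes, and in the Lin28a culture the 17th lowest of 12850. In bulk cultures fewer cells that express a gene and less RNA per cell cannot be told apart, here or for any gene below.

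Neurog1 (NM_010896, chromosome 13), its close relative, which commits progenitors of sensory ganglia and of parts of the brain, was far lower. It had 0.233 FPKM in P3 Lin28a and was listed at the floor in P3 control, against 1.65 at P1 with Lin28a and 1.79 at P1 in control. In P1 it stood at 2.58% of Neurog2 in the Lin28a library and at 3.11% in the control library. In polysomes it was at 0.313 RPKM in Lin28a and 0.141 in control, or 6.91 and 3.00 reads per kilobase. The P3 values of Neurog1 were under 1 in all 4 P3 libraries, so it entered the passage comparisons and the P1 comparison but no P3 comparison of the viruses.

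Neurod1 (NM_010894, chromosome 2) and Neurod4 (NM_007501, chromosome 10) take over in differentiating neurons once the Neurog genes have acted. Neurod1 was at 0.971 FPKM in P3 Lin28a and 0.0359 in P3 control, against 9.26 at P1 with Lin28a and 12.0 at P1 in control. The polysome level was 1.37 RPKM in Lin28a and 0.245 in control. Both P1 libraries were more than 9 FPKM, and only the control culture was near 0 at P3. Neurod4 was at 1.35 FPKM in P3 Lin28a and 0.0122 in P3 control, against 7.37 at P1 with Lin28a and 6.95 at P1 in control. The polysome level was 2.20 RPKM in Lin28a and 0.176 in control. The P3 control values of both genes in RNA-seq may rest on very few fragments, which FPKM does not show.

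Nhlh1 (NM_010916, chromosome 1) and Nhlh2 (NM_178777, chromosome 3) encode a pair of closely related bHLH factors of newborn neurons. Nhlh2 was second to Neurog2 in every library except P3 control polysomes, where Nhlh1 stood between them. Nhlh2 was at 5.02 FPKM in P3 Lin28a and 0.288 in P3 control, against 28.6 at P1 with Lin28a and 31.5 at P1 in control. Its polysome level was 4.10 RPKM in Lin28a and 0.316 in control. Nhlh1 was at 1.56 FPKM in P3 Lin28a and 0.0390 in P3 control, against 11.5 at P1 with Lin28a and 11.9 at P1 in control. Polysomes held 3.47 RPKM in Lin28a and 0.416 in control. For both genes the P1 libraries were high, P3 Lin28a was lower and P3 control was lowest.

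The promoters of the Nhlh pair are shown because these 2 members alone shared the E-box CAGATG, a form that Neurog and Neurod proteins are known to bind. The windows are the 250 bases before each transcription start, from RefSeq in build GRCm38.p6, which is not the build mm9 of the study. Nhlh1 lies at chr1:172057597-172057846 on the minus strand and Nhlh2 at chr3:102009895-102010144 on the plus strand. Capitals mark each E-box CANNTG, which reads alike on both strands and includes CAGATG and CATCTG.
Nhlh1: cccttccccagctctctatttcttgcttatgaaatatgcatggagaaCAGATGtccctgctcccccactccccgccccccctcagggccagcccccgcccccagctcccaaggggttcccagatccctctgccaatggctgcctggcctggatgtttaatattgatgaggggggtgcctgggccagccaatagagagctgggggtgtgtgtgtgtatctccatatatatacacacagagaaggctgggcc
Nhlh2: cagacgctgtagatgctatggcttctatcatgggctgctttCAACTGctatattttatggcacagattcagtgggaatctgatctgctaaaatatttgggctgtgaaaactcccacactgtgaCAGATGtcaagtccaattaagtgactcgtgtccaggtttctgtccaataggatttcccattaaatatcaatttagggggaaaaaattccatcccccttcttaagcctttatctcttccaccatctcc

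CAGATG, on either strand, was in 14.4% of 32851 such windows of the mouse genome, and CANNTG in 66.2%. Promoter windows were matched for all 7 members, and CANNTG was in those of 3, Neurod1, Nhlh1 and Nhlh2. The windows of Neurog2, Neurog1, Neurod4 and Atoh1 held no CANNTG. The N-box CACNAG, which Hes repressors are known to bind, was in the windows of Neurod4 and Nhlh2, and in 36.7% of all windows on either strand. CAGCTG, another E-box form within CANNTG, was in 0 of the 7 members' windows and in 13.0% of all windows, too small a share to expect many among 7. A match is only a run of letters in this window and says nothing on binding.

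Atoh1 (NM_007500, chromosome 6) was nearly absent. It was listed at the floor in P3 Lin28a and at 0.0455 FPKM in P3 control, against 0.0404 at P1 with Lin28a and 0.0466 at P1 in control, and it was at the floor in both polysome libraries. P1 control exceeded P1 Lin28a 1.15-fold and P3 control 1.02-fold, close to the relative depths of 1.16 and 1.01 that equal fragment numbers would give. Atoh1 entered no comparison. Of 5 genes of its lineage, 4 entered the passage comparisons and 3 were lower past 2-fold in each culture, beside 4.80% of all genes in Lin28a and 8.14% in control. Their medians were -1.26 in Lin28a and -1.45 in control. Among them Barhl2 was well detected, with 16.4 FPKM in P3 Lin28a and 8.95 in P3 control, against 39.5 at P1 with Lin28a and 34.9 at P1 in control, although Barhl2 is also used by other regions. Barhl1 and Lhx9 were under 1 in both P3 RNA-seq libraries and entered through P1 alone, which sets their direction.

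**Figure D1:**
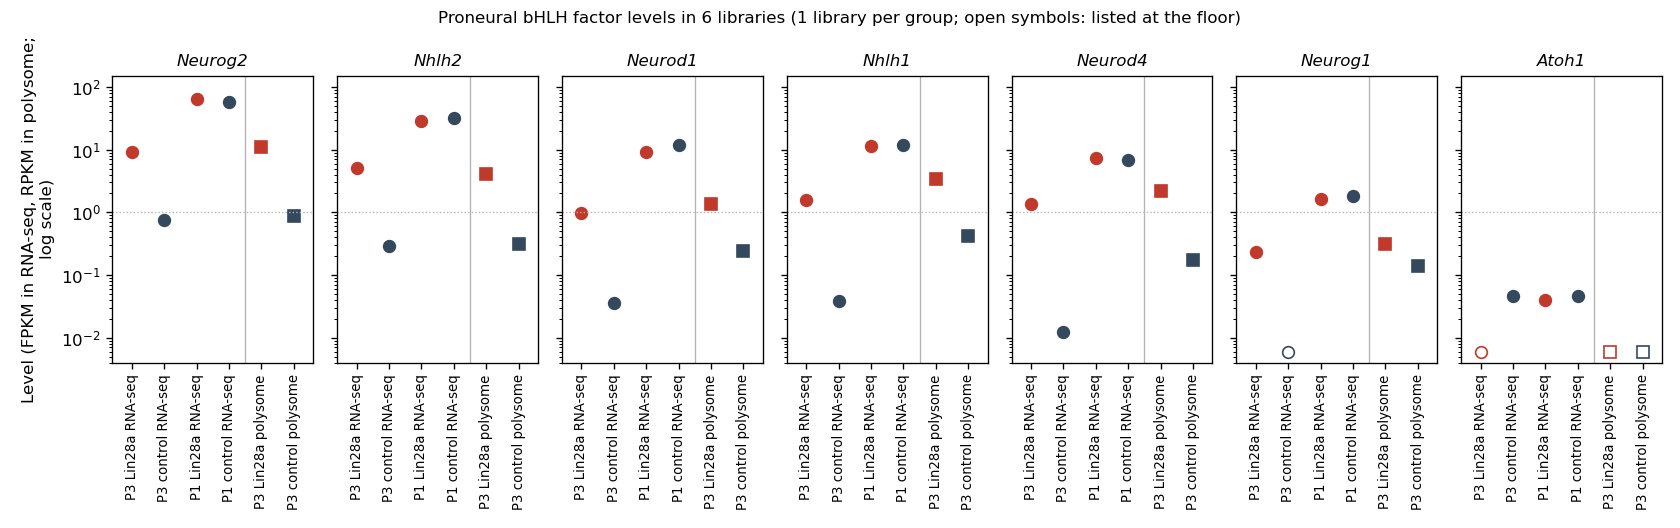
Level of each of the 7 genes (FPKM in RNA-seq, circles; RPKM in polysomes, squares; log axis) in the 6 libraries, Lin28a in red and control in dark blue, 1 library each, with open symbols for genes listed at the floor. Neurog2 was at 9.03 FPKM in P3 Lin28a and 0.750 in P3 control, and both P1 libraries were higher, at 64.1 and 57.5.

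At P3, 6 of the 7 genes were lower than at P1 past 2-fold in each culture, and the passage comparisons of the 2 cultures have no library in common. These were all the members that entered: 6 of 6 in the Lin28a culture, beside 4.80% of all genes, and 6 of 6 in the control culture, beside 8.14% of all genes. All 7 members were under 1 in P3 control, so these 6 entered the control comparison through P1 alone, which sets their direction. In the Lin28a culture the same holds for Neurog1 and Neurod1, which were under 1 at P3. With a pseudocount of 5, 4 members were past 2-fold in the Lin28a culture and 5 in the control culture. Neurog1 was then at -0.35 and -0.44, under 2-fold in both, and Neurod4 at -0.96 in the Lin28a culture. With the pseudocount of 1 the members' median log2 ratio was -2.29 in the Lin28a culture and -3.64 in the control culture, while the median of all genes tested was -0.01 and -0.00. In the Lin28a culture the ratios were -2.70 for Neurog2, -2.38 for Neurod1, -2.30 for Nhlh2, -2.29 for Nhlh1, -1.83 for Neurod4 and -1.11 for Neurog1. In the control culture they were -5.06 for Neurog2, -4.66 for Nhlh2, -3.65 for Neurod1, -3.64 for Nhlh1, -2.97 for Neurod4 and -1.48 for Neurog1. With no replicates, the order of neighbours such as Neurod1 and Nhlh1 has no measured error.

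On the FPKM scale without a pseudocount, the 6 genes kept a like share of their P1 level in the Lin28a culture. Their P3 level was between 10.5% (Neurod1) and 18.3% (Neurod4) of P1, with Neurog1 at 14.1%, Nhlh1 at 13.53% and Nhlh2 at 17.6%. In the control culture the share was 1.30% for Neurog2, 0.914% for Nhlh2, 0.327% for Nhlh1, 0.298% for Neurod1 and 0.176% for Neurod4. The P3 control values behind Nhlh1, Neurod1 and Neurod4 were 0.0390, 0.0359 and 0.0122 FPKM, under that of Atoh1 (0.0455). They may rest on very few fragments, so the size and order of these shares are uncertain. Neurog1, at the floor in P3 control, has no share. Relative to Neurog2, Nhlh2 stood at 55.6% in P3 Lin28a and 38.4% in P3 control, against 44.6% at P1 with Lin28a and 54.7% at P1 in control. Neurod4 stood at 14.9% of Neurog2 in P3 Lin28a and 1.63% in P3 control, with 11.5% and 12.1% in P1 Lin28a and P1 control. The low share of Neurod4 in P3 control, which rests on 0.0122 FPKM, was not seen in polysomes. There Neurod4 stood at 20.1% of Neurog2 in Lin28a and 20.5% in control. Nhlh2 stood there at 37.4% and 36.7%, and Neurod1 at 12.5% in Lin28a and 28.5% in control.

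**Figure D2:**
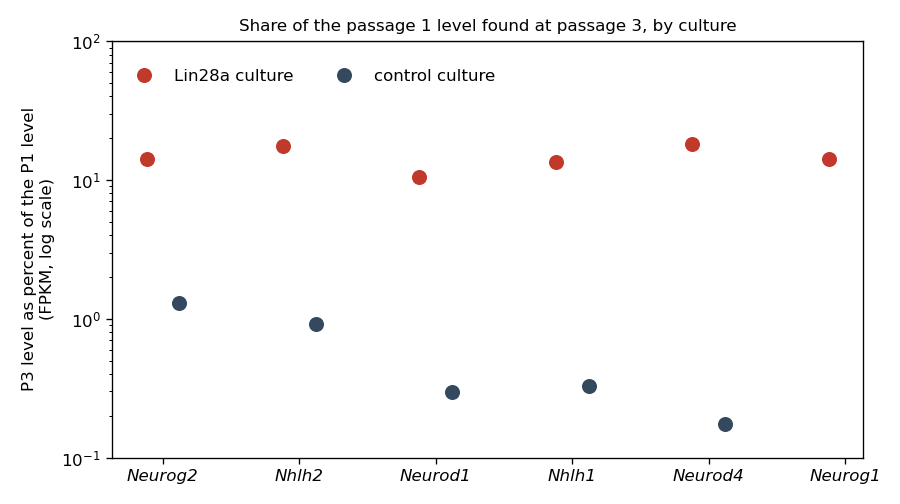
P3 level as a percent of the P1 level (FPKM, log axis) for 6 genes in the Lin28a culture (red) and the control culture (dark blue). The Lin28a points lie between 10.5% and 18.3% and the control points between 0.176% and 1.30%, and Neurog1 has no control point because it was listed at the floor. The control points of Nhlh1, Neurod1 and Neurod4 rest on P3 values of only 0.0390, 0.0359 and 0.0122 FPKM.

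At P1 the cultures hardly differed in these genes. None of the 6 members that entered was past 2-fold between Lin28a and control, beside 0.231% of all genes. Neurog2 (0.15) and Neurod4 (0.07) were above 0 on the log2 scale. Nhlh1 (-0.04), Neurog1 (-0.07), Nhlh2 (-0.13) and Neurod1 (-0.34) were below. The middle 95% of all genes lay between -0.45 and 0.38, so all 6 ratios were inside it.

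At P3 the proneural genes were much higher in the Lin28a culture. All 4 members that reached 1 FPKM were higher past 2-fold, beside 1.31% of all genes. Their log2 ratios were 2.52 for Neurog2, 2.23 for Nhlh2, 1.30 for Nhlh1 and 1.21 for Neurod4. Neurog2 was 8th and Nhlh2 10th highest of 12716 genes. With a pseudocount of 5, 1 member stayed past 2-fold, and with a filter at 5 FPKM 2 members entered and both were past it. These 4 passed the filter through the Lin28a library alone, as all 7 members were under 1 in P3 control, which sets their direction. As FPKM ratios, Neurog2 was 12.0-fold and Nhlh2 17.4-fold higher in Lin28a. Neurod1, just under the filter, had a ratio of 0.93, and Neurog1 and Atoh1 were under 1 in both libraries. The passage comparison of the control culture uses the same P3 control library, and that of the Lin28a culture uses the same P3 Lin28a library, so those ratios and these are not independent.

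Polysome libraries, which share no library with RNA-seq, also had the members that entered higher with Lin28a at P3. Whether RNA-seq and polysomes came from 1 batch of cells is not stated in the labels. Of 5 members that entered, 4 were higher past 2-fold with Lin28a, beside 0.952% of all genes. These 5 also passed the filter through the Lin28a library alone, as all 7 members were under 1 RPKM in control. The filter thus sets their direction in both assays, and only the size of the ratios is informative. The log2 ratios were 2.68 for Neurog2, 1.95 for Nhlh2, 1.66 for Nhlh1, 1.44 for Neurod4 and 0.93 for Neurod1. Neurog2 had the second highest ratio of 12289 genes and Nhlh2 the 6th. With a pseudocount of 5, or with a filter at 5 RPKM, 1 member was past 2-fold. As RPKM ratios, Neurog2 was 12.7-fold, Nhlh2 12.98-fold, Neurod4 12.5-fold, Nhlh1 8.33-fold, Neurod1 5.59-fold and Neurog1 2.21-fold higher. Behind them stood 242 reads per kilobase in Lin28a and 18.3 in control for Neurog2, and 48.6 and 3.74 for Neurod4. The difference of the log2 ratios, polysome minus RNA-seq, was 0.36 for Nhlh1, 0.23 for Neurod4, 0.16 for Neurog2, 0.00 for Neurod1 and -0.27 for Nhlh2. None of these 5 was past 2-fold, beside 1.13% of all genes, whose median was 0.07. The small differences rest on the pseudocount: with 0.1 in place of 1 they were -0.79 for Nhlh1, -0.63 for Neurod4 and -0.89 for Neurod1, opposite in sign. Without a pseudocount the RNA-seq ratio was 110.2-fold for Neurod4, 40.0-fold for Nhlh1 and 27.1-fold for Neurod1, all larger than in polysomes and set against P3 control values under 0.04 FPKM.

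The passage change itself differed between cultures for 5 of 6 members past 2-fold, beside 1.55% of all genes that were higher in this difference. The difference of log2 ratios, Lin28a minus control, was 2.37 for Neurog2, 2.36 for Nhlh2, 1.34 for Nhlh1, 1.27 for Neurod1, 1.14 for Neurod4 and 0.38 for Neurog1. Neurog2 and Nhlh2 were 11th and 12th highest of 13138 genes. With a pseudocount of 5, 2 members were past 2-fold. With 1 library in each of the 4 groups this difference has no test.

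**Figure D3:**
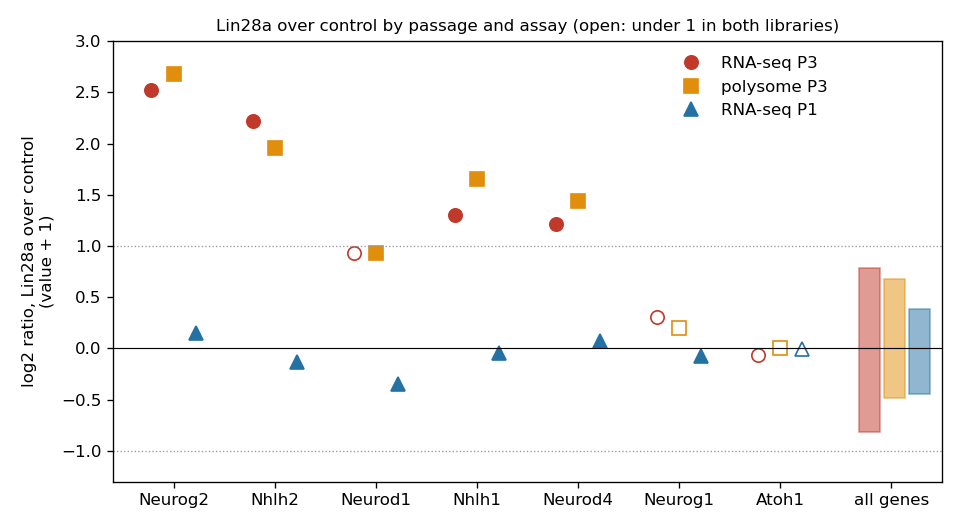
Log2 ratio of Lin28a over control (value plus 1) for the 7 genes at P3 in RNA-seq (circles), at P3 in polysomes (squares) and at P1 in RNA-seq (triangles), with open symbols for genes under 1 in both libraries and bars for the middle 95% of all genes tested. Neurog2 reached 2.52 and 2.68 at P3 and 0.15 at P1.

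Other neural bHLH factors followed these genes only in part. Of 16 on the list, 9 entered the passage comparisons. In the Lin28a culture 2 were higher and 4 lower past 2-fold (median -0.86), beside 8.38% of all genes higher and 4.80% lower. In the control culture 2 were higher and 5 lower (median -1.40), beside 11.5% of all genes higher and 8.14% lower. In each culture 7 of the 9 were below 0. The passage difference, Lin28a minus control, was higher past 2-fold for 4 of the 9, beside 1.55% of all genes. These were Tal2 (1.53), Ferd3l (1.29), Tal1 (1.22) and Helt (1.02), and the rest lay between -0.33 (Olig1) and 0.21 (Olig2). Tal2, Ferd3l, Tal1 and Helt were under 1 in P3 control. They entered the control passage comparison through P1 alone, which sets their direction there. The same holds for Tal1 in the Lin28a culture (0.988 FPKM at P3). Olig1 and Olig2, factors of oligodendrocyte precursors, were higher at P3. Olig2 was at 93.3 FPKM in P3 Lin28a and 130 in P3 control, against 34.4 at P1 with Lin28a and 55.7 at P1 in control.

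Tal2, a factor of midbrain GABA neurons, and Ferd3l, a floor plate factor, had the same order of libraries as most members. Tal2 was at 2.12 FPKM in P3 Lin28a and 0.190 in P3 control, against 14.3 at P1 with Lin28a and 15.8 at P1 in control. Ferd3l was at 1.52 FPKM in P3 Lin28a and 0.221 in P3 control, against 8.42 at P1 with Lin28a and 10.1 at P1 in control. At P3 their log2 ratios of Lin28a over control were 1.39 and 1.05 in RNA-seq, and 1.15 and 0.84 in polysomes. In RNA-seq both entered through the Lin28a library alone, which sets their direction. In polysomes both were above 1 RPKM in control too (4.75 for Tal2 and 1.91 for Ferd3l). Olig1 was lower with Lin28a at P3 in RNA-seq (-1.10) and at -0.50 in polysomes.

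The E protein partners stayed abundant while the members were low. Tcf12 was at 416 FPKM in P3 Lin28a and 268 in P3 control, against 235 at P1 with Lin28a and 232 at P1 in control. Tcf4 was at 82.4 FPKM in P3 Lin28a and 67.2 in P3 control, against 44.2 at P1 with Lin28a and 42.7 at P1 in control. Tcf3 was at 50.2 FPKM in P3 Lin28a and 40.8 in P3 control, against 80.2 at P1 with Lin28a and 70.1 at P1 in control. None of the 3 was past 2-fold in either passage comparison, at P1, at P3 or in polysomes. Of all genes, 8.38% were higher and 4.80% lower with passage in Lin28a, and 11.5% and 8.14% in control. Between viruses the shares were 0.231% either way at P1, 1.31% higher and 1.34% lower at P3, and 0.952% and 0.122% in polysomes. A count of 0 among 3 genes is near these shares.

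Of the 4 Id genes, whose products block E proteins, 2 were higher at P3 past 2-fold in the control culture, beside 11.5% of all genes. In the Lin28a culture none was higher, beside 8.38%, and 1, Id4, was lower past 2-fold, beside 4.80%. Id1 had passage ratios of 0.62 in the Lin28a culture and 1.29 in the control culture, and Id2 of 0.62 and 1.36. Id3 was at 0.14 and 0.65. Id4 was at -1.18 and -0.97. At P3 all 4 were below 0 with Lin28a in RNA-seq, from -0.73 (Id2) to -0.11 (Id4), none past 2-fold, beside 1.34% of all genes lower. In polysomes all 4 were above 0, from 0.22 (Id1) to 1.13 (Id4), so the assays gave opposite signs for this list. Among Hes and Hey repressors, Hes5 was higher at P3, with 117 FPKM in P3 Lin28a and 116 in P3 control, against 24.6 at P1 with Lin28a and 30.5 at P1 in control. Of the 5 that entered, 2 were higher past 2-fold in the Lin28a culture and 3 in the control culture, beside 8.38% and 11.5% of all genes. Hes1 was at 31.6 FPKM in P3 Lin28a and 31.0 in P3 control, against 47.8 at P1 with Lin28a and 49.3 at P1 in control. Between Lin28a and control none of the 5 Hes and Hey genes that entered was past 2-fold at P1, at P3 or in polysomes. Few of all genes were: 0.231% at P1, 1.31% higher and 1.34% lower at P3, and 0.952% higher and 0.122% lower in polysomes. A count of 0 among 5 genes is thus near the share over all genes.

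**Figure D4:**
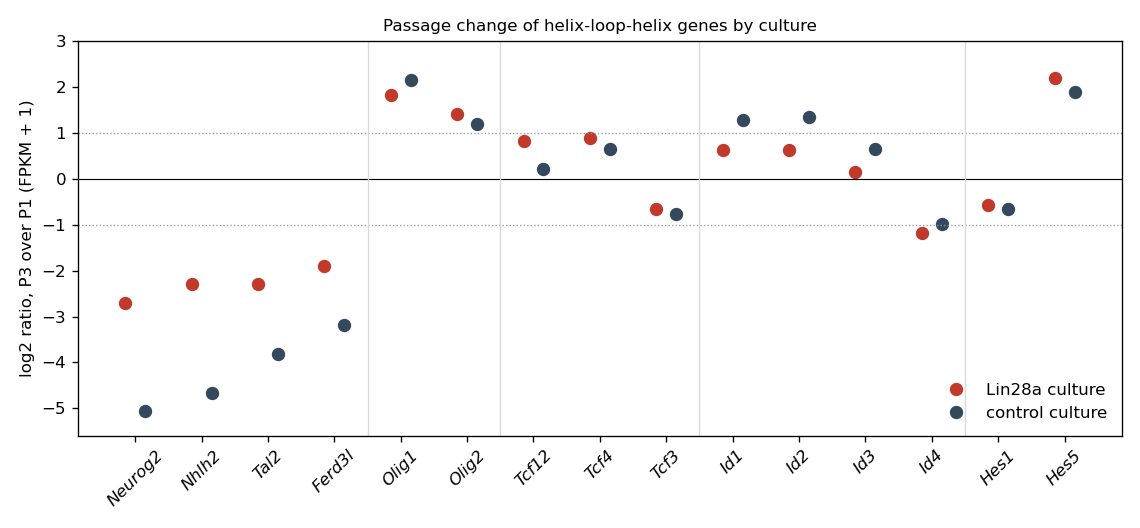
Log2 ratio of P3 over P1 (FPKM plus 1) for helix-loop-helix genes in the Lin28a culture (red) and the control culture (dark blue), with dotted lines at 2-fold. Neurog2 and Nhlh2 were at -2.70 and -2.30 with Lin28a and at -5.06 and -4.66 in control, and Id1 and Id2 were at 1.29 and 1.36 in control.

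Many genes that act downstream of proneural factors were lower at P3. Of 23 on the list 22 entered the passage comparisons. In the Lin28a culture 9 were lower and 3 higher past 2-fold (median -0.73), beside 4.80% of all genes lower and 8.38% higher. In the control culture 13 were lower and 2 higher (median -1.33), beside 8.14% lower and 11.5% higher, so the count of higher genes was near the share over all genes. Of the list, 22 genes were at 1 or more in each P1 library, but 16 in P3 control and 19 in P3 Lin28a. Those under 1 at P3 entered through P1 alone, which sets their direction. The lowest in control were the neuronal tubulin Tubb3 (-3.96), the transcription factor Ebf3 (-3.66), the tubulin-binding Stmn2 (-3.18) and the migration gene Dcx (-3.09). In the Lin28a culture these 4 were at -1.69, -1.91, -1.57 and -1.09. The Notch ligand Dll1, a direct proneural target, went the other way, with 50.2 FPKM in P3 Lin28a and 53.0 in P3 control, against 21.1 at P1 with Lin28a and 20.3 at P1 in control. Rnd2, a target of Neurog2 in the mouse cortex, was at 139 FPKM in P3 Lin28a and 216 in P3 control, against 47.1 at P1 with Lin28a and 49.1 at P1 in control. At P3, 8 of 19 genes were higher past 2-fold with Lin28a (median 0.68), beside 1.31% of all genes. Among them were Tubb3 (2.08), Dcx (1.73), Elavl4 (1.72) and Insm1 (1.31). Ebf2, Ebf3 and Srrm4, also among the 8, were under 1 in P3 control (0.0799, 0.251 and 0.517 FPKM). They entered through the Lin28a library alone, which sets their direction. In polysomes 5 of 21 were higher (median 0.68), beside 0.952% of all genes. Among them were Tubb3 (2.27), the neurogenic zinc finger gene Myt1 (1.57) and the neuronal splicing factor Srrm4 (1.22). Srrm4 was under 1 RPKM in control polysomes (0.686) and entered through the Lin28a library alone. At P1 none of 22 was past 2-fold, beside 0.231% of all genes. No gene of the list was lower past 2-fold with Lin28a at P3 or in polysomes, beside 1.34% and 0.122% of all genes.

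The regulators that lie upstream of Neurog2 in the ventral midbrain were also mostly lower at P3. Of 7, 5 were lower and 1 higher past 2-fold in the Lin28a culture (median -1.17), beside 4.80% and 8.38% of all genes. In the control culture 6 were lower and 1 higher (median -2.32), beside 8.14% and 11.5%. Lmx1a, which specifies dopamine progenitors, was at 14.2 FPKM in P3 Lin28a and 4.61 in P3 control, against 31.5 at P1 with Lin28a and 30.4 at P1 in control. Foxa2, a floor plate factor, was at 3.64 FPKM in P3 Lin28a and 0.830 in P3 control, against 15.9 at P1 with Lin28a and 18.4 at P1 in control. Pax6, which controls Neurog2 in the mouse cortex, was the gene that was higher. It was at 11.2 FPKM in P3 Lin28a and 9.01 in P3 control, against 2.69 at P1 with Lin28a and 3.08 at P1 in control. At P3, 4 of 7 were higher past 2-fold with Lin28a in RNA-seq (median 1.01), beside 1.31% of all genes. Foxa2 and Lmx1b (0.971 FPKM) were under 1 in P3 control. They entered this comparison through Lin28a alone and the control passage comparison through P1 alone, which sets their direction in both. In polysomes 4 of 7 were (median 1.07), beside 0.952%.

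Markers of other cells differed along with these results. The 10 neuron markers, of which 5 are also on the downstream list, summed to 516 FPKM in P3 Lin28a and 305 in P3 control, against 974 at P1 with Lin28a and 1169 at P1 in control. In the Lin28a culture 4 of 10 were lower at P3 past 2-fold, beside 4.80% of all genes, and in the control culture 9 of 10, beside 8.14%. The 8 astrocyte markers summed to 1006 FPKM in P3 Lin28a and 1655 in P3 control, against 254 at P1 with Lin28a and 336 at P1 in control. The 10 oligodendrocyte lineage markers summed to 1382 FPKM in P3 Lin28a and 2277 in P3 control, against 113 at P1 with Lin28a and 189 at P1 in control. All 8 and all 10 were higher at P3 past 2-fold in each culture, beside 8.38% of all genes in Lin28a and 11.5% in control. At P1, 6 of the 8 astrocyte markers were at 1 or more in each culture. Of the 10 oligodendrocyte lineage markers, 7 were in Lin28a and 9 in control. The others entered through P3 alone, which sets their direction. Gfap, on the astrocyte list, was at 25.0 FPKM in P3 Lin28a and 142 in P3 control. At P1 it was at 0.269 with Lin28a and 0.743 in control. The part of these markers' cells in the proneural values was not tested. Of the 8 sensory neuron and neural crest markers, which bear on Neurog1, only Isl1 and Sox10 reached 1 in any library, and both are also used by other cells. The list summed to 56.5 FPKM in P3 Lin28a and 75.4 in P3 control, nearly all of it Sox10, and Prrxl1 was at the floor in both. Of the 8 ventral midbrain markers, 4 are also on the list of upstream regulators. The 8 summed to 97.8 FPKM in P3 Lin28a and 60.5 in P3 control. At P1 their sums were 247 with Lin28a and 252 in control. At P3, 6 of 8 were lower past 2-fold in the Lin28a culture, beside 4.80% of all genes, and 8 of 8 in the control culture, beside 8.14%. Foxa2 and Lmx1b, under 1 in P3 control, entered the control comparison through P1 alone, which sets their direction. The 9 neural stem cell markers summed to 4162 FPKM in P3 Lin28a and 6075 in P3 control, against 3163 at P1 with Lin28a and 3469 at P1 in control. Single genes did not all follow the sum. At P3, 5 of the 9 were above 0 with Lin28a and 4 below, from -0.96 (Fabp7) to 0.85 (Prom1), with a median of 0.28. Microglial markers summed to at most 0.493 FPKM or RPKM in any library. Endothelial markers summed to between 3.28 and 8.91 and mesenchymal markers to between 6.15 and 27.5.

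The pattern compared with other genes was the level in the 4 RNA-seq and the 2 polysome libraries on the log2 scale, each gene centred on its own mean within an assay, set against the median of the 6 members that reached 1 FPKM. Of 12086 genes, the 5 nearest by Euclidean distance were Celf3 (0.25), Slc17a6 (0.29), Lef1 (0.32), Cntn2 (0.35) and Tal2 (0.38). The members themselves lay between 0.24 (Nhlh1) and 1.99 (Neurog1) from that median. Celf3, an RNA-binding protein of neurons, was at 7.82 FPKM in P3 Lin28a and 1.99 in P3 control, against 33.8 at P1 with Lin28a and 34.4 at P1 in control. Slc17a6, the vesicular glutamate transporter of many young neurons, was at 4.55 FPKM in P3 Lin28a and 0.861 in P3 control, against 19.3 at P1 with Lin28a and 20.1 at P1 in control. Lef1, a nuclear effector of Wnt signals, was at 5.68 FPKM in P3 Lin28a and 1.68 in P3 control, against 32.2 at P1 with Lin28a and 29.0 at P1 in control. The measure rests on 6 libraries, with 1 per group.

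Small RNA libraries of the same culture groups also measured neuronal microRNAs. miR-124 is the classic microRNA of neurons, and miR-9 is made in neural progenitors and in neurons, where both arms of its hairpin are used. The libraries held between 6322534 and 8542827 microRNA counts. The mature miR-9 sequences are shown because the 2 arms carry different seeds (bases 2 to 8, in capitals). They are from RefSeq in build GRCm38.p6 and are identical at all 3 loci of the table, Mir9-1 on chromosome 3, Mir9-2 on chromosome 13 and Mir9-3 on chromosome 7.
mmu-miR-9-5p: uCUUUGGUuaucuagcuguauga
mmu-miR-9-3p: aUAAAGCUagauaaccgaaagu

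miR-124-3p followed the order of the proneural genes in passage and at P3. It was at 214 CPM (CPM scales counts to all microRNA counts of a library; 1824 counts) in P3 Lin28a, 70.5 CPM (584 counts) in P3 control, 895 CPM (7422 counts) in P1 Lin28a and 648 CPM (4094 counts) in P1 control. The P3 libraries were thus low and P3 control was lowest. The ratio of P3 to P1 was 0.238 (95% interval 0.226 to 0.251) in the Lin28a culture and 0.109 (0.0996 to 0.119) in the control culture. The ratio of Lin28a to control was 3.03 (2.76 to 3.33) at P3 and 1.38 (1.33 to 1.44) at P1, where the proneural genes were near equal. These intervals are exact conditional binomial ones that cover counting error only. They may be too narrow, because mature counts of miR-124-3p and miR-9-5p exceeded the counts of their hairpins up to 2.07 and 2.86 times.

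miR-9 did not follow the members. miR-9-5p was at 79702 CPM in P3 Lin28a and 83788 in P3 control, against 30585 at P1 with Lin28a and 33496 at P1 in control. miR-9-3p was at 3327 CPM in P3 Lin28a and 3974 in P3 control, against 406 at P1 with Lin28a and 608 at P1 in control. Both arms were higher at P3, 2.61-fold (2.59 to 2.62) for miR-9-5p and 8.19-fold (7.90 to 8.49) for miR-9-3p in the Lin28a culture. In the control culture they were 2.501-fold (2.49 to 2.51) and 6.54-fold (6.33 to 6.76) higher. At P3 the ratio of Lin28a to control was 0.951 for miR-9-5p and 0.837 for miR-9-3p.

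**Figure D5:**
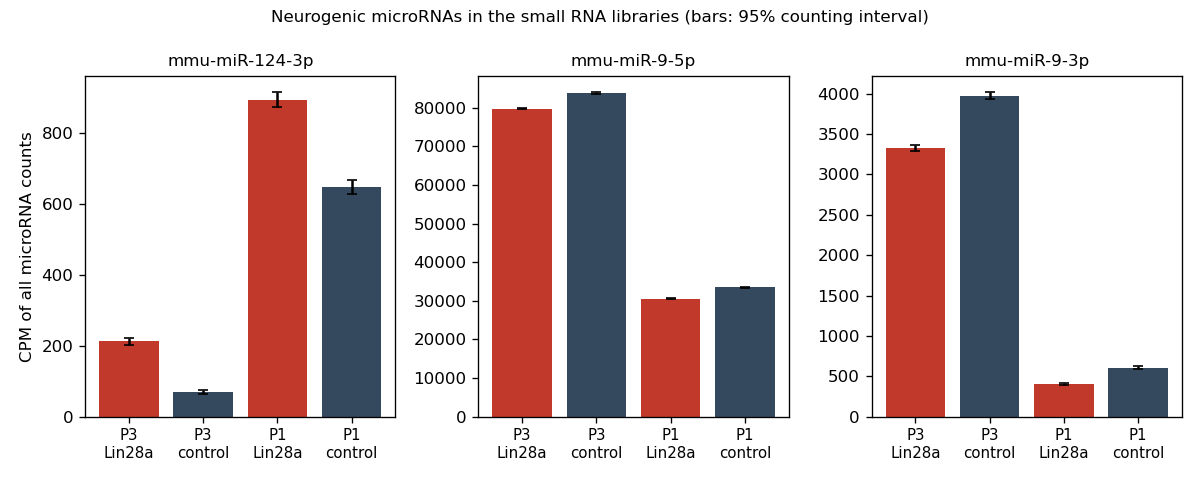
CPM of 3 microRNAs in the 4 small RNA libraries, Lin28a in red and control in dark blue, with 95% binomial counting intervals. miR-124-3p was at 214 and 70.5 CPM at P3 and at 895 and 648 CPM at P1, while both arms of miR-9 were higher at P3.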

How the data were processed

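RNA-seq values were deposited by the authors as FPKM and polysome values as RPKM, 1 value per RefSeq gene. The file headers do not name these units, which were read from the values and from the tools listed. Bowtie 1.0.0, TopHat2 2.0.6, Cufflinks 2.1.1 and build mm9 are named per the submitters' processing notes, with no role given. Genes without an estimate are listed at a floor of 4.8e-07 FPKM, or 0.00331 and 0.00204 RPKM in Lin28a and control polysomes. The labels call the RNA poly(A)-selected, while the protocol names a total RNA kit, and no source used here names the gradient fractions, so levels in RNA-seq and polysomes were not compared with each other. Small RNA counts per mature microRNA were deposited without normalization, per the file headers, and scaled here to CPM.

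A pseudocount of 1 was added before log2, and genes at 1 or more in at least 1 library compared were kept. Each group was 1 library, taken from the sample titles, so no statistical test was run and a 2-fold rule counted differences. Polysome read depth came from value times gene length of short genes, which gathered within 1% of a common step (33 genes in Lin28a, 27 in control) and its double (23 and 23). The members, gene lists and rules were chosen with earlier results of these data known. Named genes are all members, list genes past 2-fold (up to 6 per list and comparison), all E protein and Id genes, and the 5 nearest patterns. Genes named with values that lie outside this rule (Hes1 and genes within 2-fold) were chosen after their values were seen. Alternatives were pseudocounts of 0.1 and 5, no filter or a filter at 5, 2 rescalings, and microRNA totals without the let-7 family. The counting of genes past 2-fold was checked on simulated data, with changes placed only in genes at 5 or more. Recovery of changes was not checked at levels as low as those of the members in P3 control. The software was Python 3.11.15 with pandas 2.3.3, numpy 2.4.6, matplotlib 3.10.9 and scipy 1.17.1.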

Additional observations from a re-analysis of the deposited data

Results flagged for a closer look

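With 1 library per group, 4 members had Lin28a over control ratios of opposite sign at the 2 passages, above 0 at P3 and below 0 at P1. The difference of the log2 ratios, P3 minus P1, was 2.36 for Nhlh2, 1.34 for Nhlh1, 1.27 for Neurod1 and 0.38 for Neurog1. By construction it is the same quantity as the passage difference given above and not a separate result. These differences were not tested, and the P1 ratios of these 4 lay between -0.34 and -0.04. Neurod1 and Neurog1 were under 1 in both P3 RNA-seq libraries and did not enter the P3 comparison.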

How the results depend on the processing

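No paired analysis was possible because each group holds 1 library and the labels give no replicate numbers. All 38 ratios of single members kept their sign wherever they were past 2-fold, and 201 of 215 recomputed ratios stayed on their side of 2-fold. With a pseudocount of 5, 12 dropped under 2-fold, and with 0.1, 2 more passed it (Neurod1 in polysomes at 2.09 and the passage difference of Neurog1 at 1.85). Polysome minus RNA-seq changed sign with 0.1 for Nhlh1, Neurod4 and Neurod1, and with both rescalings for Neurod1 (-0.05 and -0.02). The count of members higher with Lin28a at P3 was 4 in RNA-seq, but 1 with a pseudocount of 5 and 2 with a filter at 5. In polysomes it was 4, but 1 under each of these. For the passage difference it was 5, but 2 with a pseudocount of 5. These members are low in absolute level, so the larger pseudocount shrinks their ratios by construction and the higher filter removes members. With totals without let-7, miR-124-3p at P3 was 2.73-fold higher in Lin28a. miR-9-5p was 2.56-fold and 2.70-fold higher at P3 in the Lin28a and control cultures, and its ratio of Lin28a to control was 0.903 at P1 and 0.856 at P3. miR-9-3p was 7.07-fold higher at P3 in control, and its ratio of Lin28a to control at P3 was 0.753.

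Counts over all genes moved more with the pseudocount. With 0.1, genes higher and lower were 1432 and 966 for passage in Lin28a (1077 and 617 before), 43 and 46 for Lin28a at P1 (17 and 12), 343 and 333 at P3 (166 and 171) and 249 and 61 in polysomes (117 and 15). They were 533 and 281 for the passage difference (204 and 118) and 327 and 148 for polysome minus RNA-seq (117 and 31). With 5 they were 548 and 206, 7 and 7, 40 and 61, 20 and 3, 50 and 40, and 34 and 11 in the same order, and 817 and 413 for passage in control (1496 and 1059). With a filter at 5, 9 and 10 genes passed at P1, 108 and 133 at P3, and 78 and 11 in polysomes. With the median ratio set to 0, polysome minus RNA-seq had 90 higher and 52 lower (117 and 31 as deposited), and with a common upper quartile 89 and 52. Values of Neurog1, Atoh1 and, in P3 control, of the later genes are low, and the fragments behind them are unknown in RNA-seq.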
